A study of Homo sapiens with 3 samples.

Results

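DNA methylation was examined at the start sites of 7 genes of interleukin-4 and RANKL signalling in Hep3B, a human hepatocellular carcinoma cell line. The genes were IL4R, JAK1, JAK3, TYK2, TNFSF11, TNFRSF11A and TNFRSF11B, and TNFSF11 was taken with both of its start sites, which gave 8 windows. A window held every CpG within 3 kb of a start site, the reads of both strands were summed, and a CpG was used when at least 10 reads in CpG context covered it in all 3 libraries. The windows held 507 CpGs read in any library, of 3225751 in all, and 333 of them passed the minimum, of 2238764 in all. The start sites, in GRCh37, were position 27325251 of chromosome 16 for IL4R, 65432187 of chromosome 1 for JAK1, 17958841 and 10491248 of chromosome 19 for JAK3 and TYK2, 43136872 (upstream) and 43148289 (downstream) of chromosome 13 for TNFSF11, 59992520 of chromosome 18 for TNFRSF11A and 119964383 of chromosome 8 for TNFRSF11B. Distances below follow the strand of the gene, with negative values upstream of the start, and a CpG is placed by its C on the forward strand. An annotation of GRCh37 was not used here, so exons and introns are not assigned.

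The study compared parental Hep3B cells, 1 library, with 2 Hep3B lines knocked out for SOX4, a transcription factor of the SOX family, 1 library each. The lines are called line 1 and line 2 after SOX4 KO #1 and SOX4 KO #2 in their labels. By the study's methods they came from CRISPR/Cas9 editing and were grown with puromycin, an agent not named there for the parental cells, so editing, selection and time in culture cannot be told apart from the loss of SOX4. The edit at SOX4 and the identity of the cells were not checked here. Genomic DNA of all 3 samples was captured with EPIC probes, converted with bisulfite and sequenced. After conversion an unmethylated cytosine is read as T, so the methylation level of a CpG is the percentage of its reads that keep a C. Reads in CpG context numbered 104702738 in parental cells, 96987706 in line 1 and 133170621 in line 2. At the 333 CpGs of the windows the median depth was 38, 30 and 46 reads, in that order.

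Interleukin-4 binds a receptor whose alpha chain is the product of IL4R, and the kinases bound to the receptor chains, JAK1 with JAK3 in one form of the receptor and with TYK2 in another, phosphorylate STAT6, which then acts as a transcription factor in the nucleus. RANKL, the product of TNFSF11, is a cytokine of the tumour necrosis factor family known above all for driving the formation of osteoclasts. It binds RANK, the product of TNFRSF11A, and osteoprotegerin, the product of TNFRSF11B, is a secreted decoy receptor that keeps RANKL from RANK. Methylation of a CpG-rich promoter usually goes with a silent gene, while CpGs outside such promoters are methylated in most cells whether or not the gene is active. The question put to these data was how the CpGs around these start sites are methylated in parental cells and how far each knockout line differs from them.

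The upstream sequences of 5 starts are printed because the windows differed in CpG content as well as in level. They are the 250 bases before a RefSeq start, in GRCh38.p14, 5′ to 3′ on the strand of the gene, with each CG in capitals. The CGs of these sequences were matched to the CpGs of the files by their spacing, except at the upstream start of TNFSF11, whose 3 CGs are too few for that and were matched at the given start. The first lies upstream of JAK1 at chr1:64966937-64967186 (minus strand) and holds, at base 58, the single JAK1 CpG called in line 1; RefSeq start 2 lies at -432 bp on the scale used here. The second and the third lie upstream of JAK3 at chr19:17847983-17848232 (minus strand) and of TYK2 at chr19:10380573-10380822 (minus strand), 2 kinases that differed widely in level at the start. The last belong to TNFSF11, for the upstream start at chr13:42562486-42562735 and the downstream start at chr13:42573902-42574151 (plus strand).
JAK1, RefSeq start 2: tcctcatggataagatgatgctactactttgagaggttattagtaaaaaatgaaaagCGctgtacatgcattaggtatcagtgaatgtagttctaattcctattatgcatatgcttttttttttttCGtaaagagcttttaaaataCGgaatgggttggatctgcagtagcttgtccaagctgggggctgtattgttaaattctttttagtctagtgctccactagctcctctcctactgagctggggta
JAK3: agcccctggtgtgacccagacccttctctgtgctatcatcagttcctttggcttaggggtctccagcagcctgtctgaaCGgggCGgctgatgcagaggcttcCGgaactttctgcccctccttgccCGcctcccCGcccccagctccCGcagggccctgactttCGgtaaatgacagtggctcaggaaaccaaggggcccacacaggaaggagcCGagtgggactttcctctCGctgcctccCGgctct
TYK2: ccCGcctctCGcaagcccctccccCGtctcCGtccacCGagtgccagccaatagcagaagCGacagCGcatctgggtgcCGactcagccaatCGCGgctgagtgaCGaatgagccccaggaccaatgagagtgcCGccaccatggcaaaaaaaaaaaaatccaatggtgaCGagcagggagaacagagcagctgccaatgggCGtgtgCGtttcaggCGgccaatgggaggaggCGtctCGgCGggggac
TNFSF11, upstream start: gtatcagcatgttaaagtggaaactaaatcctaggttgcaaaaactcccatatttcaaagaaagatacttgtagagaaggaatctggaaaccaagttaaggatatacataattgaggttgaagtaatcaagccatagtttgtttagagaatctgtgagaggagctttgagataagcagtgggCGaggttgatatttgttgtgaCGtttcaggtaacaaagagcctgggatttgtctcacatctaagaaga
TNFSF11, downstream start: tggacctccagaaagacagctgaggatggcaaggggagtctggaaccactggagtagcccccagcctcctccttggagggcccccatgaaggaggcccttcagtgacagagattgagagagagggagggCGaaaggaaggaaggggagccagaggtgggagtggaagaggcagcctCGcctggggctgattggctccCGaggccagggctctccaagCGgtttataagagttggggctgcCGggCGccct

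Over the RefSeq promoters of 300 bases (250 before and 50 after the start), the median of 35116 promoters was 14 CGs. The IL4R promoter held 42 CGs, the JAK1 promoter at RefSeq start 3 held 43 and that of TNFRSF11A held 37. TYK2 held 24, JAK3 and the downstream start of TNFSF11 held 14 each, JAK1 at RefSeq start 2 held 9 and the upstream start of TNFSF11 held 3. GC content ran from 40.3% at the upstream start of TNFSF11 to 82.3% at TNFRSF11A. The sequence AACAAAG, one form of the motif of SOX factors, was searched on both strands and was present once, upstream of TNFSF11 at its upstream start, as it was in 5.20% of all promoters.

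Near the start sites the 8 windows ran from no methylation to full methylation. Within 500 bp of the start, the mean level in parental cells was 100% at the upstream start of TNFSF11 (3 CpGs), 36.3% at JAK3 (16 CpGs), 22.5% at TNFRSF11B (40 CpGs), 8.36% at TNFRSF11A (28 CpGs), 5.51% at the downstream start of TNFSF11 (25 CpGs), 1.73% at JAK1 (18 CpGs), 0.795% at TYK2 (66 CpGs) and 0% at IL4R (23 CpGs). The ranges over the 3 libraries of the upstream start of TNFSF11 and of IL4R did not overlap those of any other start. JAK3 and TNFRSF11B did not separate beyond the spread of the 3 libraries, since JAK3 ran from 23.3% to 36.3% and TNFRSF11B from 22.01% to 23.6%. The ranges of TNFRSF11A (4.21% to 8.36%) and the downstream start of TNFSF11 (0.901% to 5.51%) overlapped, as did those of JAK1 (0.513% to 1.73%) and TYK2 (0.795% to 1.47%). The range of the downstream start of TNFSF11 also overlapped those of JAK1 and TYK2. Away from the start, between 500 bp and 3 kb, only JAK1 and the downstream start of TNFSF11 had parental means under 40%, at 2.13% over 26 CpGs and 24.1% over 30 CpGs, while the others ran from 40.1% to 75.4%. The tested CpGs reached no farther than +886 bp at JAK1 and +1511 bp at the downstream start of TNFSF11. CpGs under the read minimum are not in these means. Pooled over their reads, they were at 4.27%, 6% and 9.22% (parental, line 1, line 2) at IL4R, at 2.50%, 1.38% and 5.91% at JAK1, at 41.3%, 45.3% and 39.9% at JAK3 and at 22.2%, 28.6% and 43.9% at TNFRSF11B. At TYK2 only 2 such CpGs were read, fully methylated in each library, and at the upstream start of TNFSF11 the 11 such CpGs pooled to 75.0%, 70.6% and 77.8%.

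**Figure D1:**
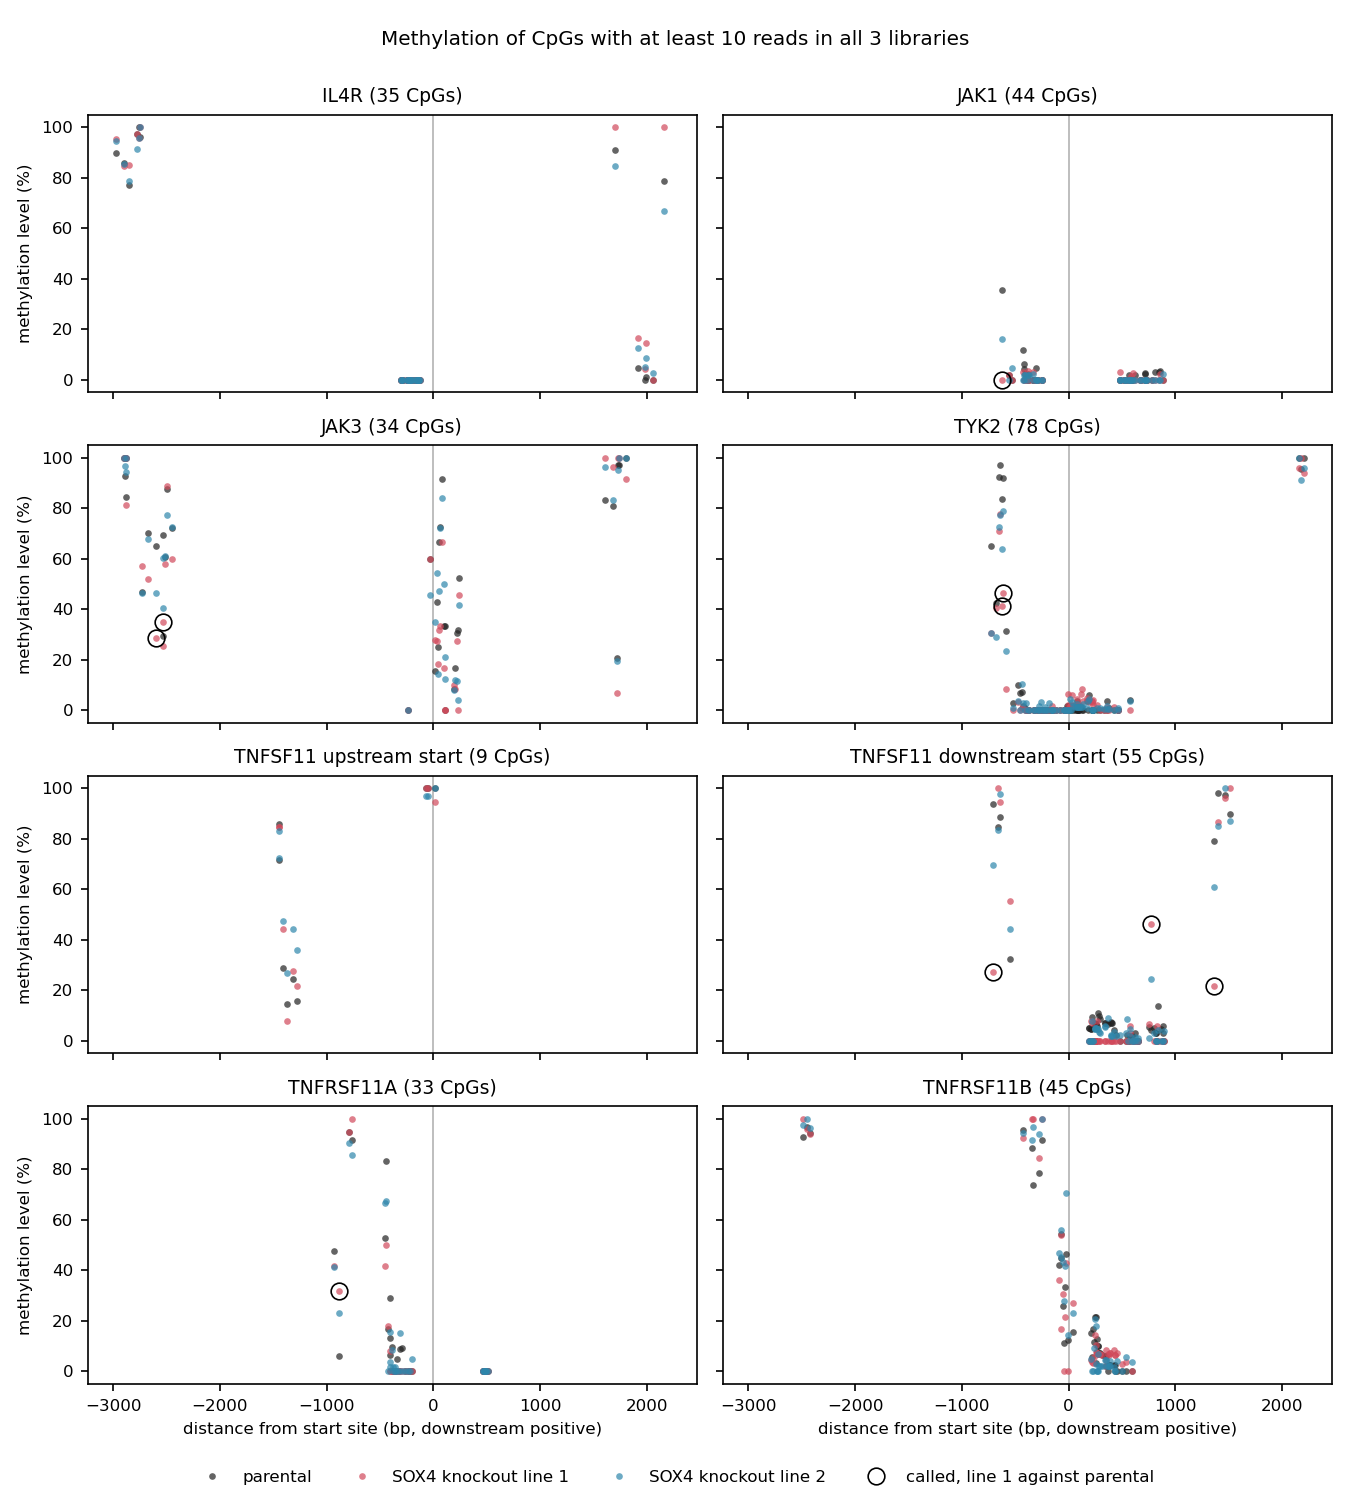
Methylation level (%) of each of the 333 CpGs against its distance in bp from the start site, 1 panel per start site, with black points for the parental library, red for SOX4 knockout line 1 and blue for line 2; open circles mark the 9 CpGs called in line 1 against parental. CpGs of IL4R, JAK1 and TYK2 near the start lie at or close to 0%, those at the upstream start of TNFSF11 lie between 94.4% and 100%, and those of JAK3 are spread from 0% to 91.7%.

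Few of the 333 CpGs differed between libraries. Methylated and unmethylated reads were set against each other between libraries, CpG by CpG, in a 2-sided Fisher exact test. P-values were adjusted by Benjamini-Hochberg over all 2238764 CpGs, and a call needed an adjusted p under 0.05 together with 25 or more percentage points of difference. With 1 library a side, such a call compares libraries and not conditions. In line 1, 2 CpGs (0.601%) rose and 7 (2.10%) fell against parental, where 0.599% of all CpGs rose and 4.46% fell. The share that rose was near that of all CpGs, and the share that fell was below it. A fall of 25 points can only occur at a CpG with a parental level of 25% or more. In parental cells 74.5% of the 333 CpGs were under 20%, against 46.9% of all CpGs. The part of this starting level in the lower share was not tested. In line 2, 0 CpGs rose and 0 fell, where the shares of all CpGs were 0.0831% and 0.713%. With no adjustment, p under 0.05 in the Fisher exact test, 4 CpGs were higher and 15 lower in line 2 (1.20% and 4.50%), where all CpGs gave 1.63% and 5.97%. Called in both lines with the same sign were 0 CpGs in each direction, where all CpGs gave 0.0581% higher and 0.6% lower. Between the lines, 0 CpGs were higher and 2 (0.601%) lower in line 1, where all CpGs gave 0.184% and 1.07%, and without adjustment these counts were 3 (0.901%) and 13 (3.90%) at p under 0.05, where all CpGs gave 1.93% and 6.34%. The median difference from parental was 0 points in both lines, over the 333 CpGs and over all CpGs alike. The mean over the 333 CpGs was 20.01% in parental cells, 17.9% in line 1 and 19.3% in line 2, while over all CpGs it was 42.7%, 38.7% and 40.6%.

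IL4R, which encodes the chain that binds interleukin-4, had no methylated read at the tested CpGs just upstream of its start, and it had no called CpG. All 23 CpGs from -301 to -127 bp were at 0% in the 3 libraries, with 0 of 432 parental reads methylated, 0 of 401 in line 1 and 0 of 559 in line 2. Reads of neighbouring CpGs can come from the same molecule, so the limit is given per CpG: the upper end of the exact 95% interval ran from 14.2% to 30.9% over the 23 CpGs for parental reads, from 15.4% to 26.5% for line 1 and from 10.9% to 23.2% for line 2. The CpG nearest to the start, at -127 bp, had 0 of 10, 0 of 12 and 0 of 14 reads methylated. No CpG between -127 and +1699 bp had enough reads, so the start itself was not tested. Of the 18 CpGs of the window under the read minimum, 15 lay within 500 bp of the start. The 18 together had 7 of 164 parental reads methylated, 6 of 100 in line 1 and 19 of 206 in line 2. Farther out, the 6 CpGs from -2976 to -2751 bp averaged 91.0% in parental cells, 93.0% in line 1 and 90.9% in line 2, so that the methylated flank did not separate the libraries either. At +1992 bp (position 27327243), 1 of 96 parental reads was methylated (1.04%), against 12 of 83 in line 1 (14.5%) and 9 of 106 in line 2 (8.49%). This CpG, singled out after its values were seen, had an adjusted p of 0.0155 in line 1 by the Fisher exact test, but its difference of 13.4 points was under the size needed for a call. Tested neighbours were also higher in both lines, at 4.76%, 16.4% and 12.5% (parental, line 1, line 2) at +1918 bp and 0%, 4.11% and 5.16% at +1983 bp. At +2063 bp the levels were 0%, 0% and 2.74%.

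JAK1, a kinase shared by the forms of the interleukin-4 receptor, had the lowest mean level over the tested CpGs of a window. Its tested CpGs lay from -624 to +886 bp, with none between -250 and +478 bp, and 42 CpGs were under the read minimum. Other windows were tested farther out, to -2976 bp at IL4R, -2895 bp at JAK3 and +2208 bp at TYK2, so their means are not over like distances. The mean over 44 CpGs was 1.96% in parental cells, 0.474% in line 1 and 0.737% in line 2. The mean of the knockout lines, 0.605% ± 0.186 (SD, n = 2), was 1.36 points under parental, a gap larger than the 0.263 points between the lines. The gap was uneven. The knockout mean minus parental was -8.51 points over 3 CpGs from -624 to -535 bp and -1.44 over 15 from -426 to -250 bp. Downstream it was 0.505 over 3 CpGs from +478 to +485 bp and -0.616 over 23 from +514 to +886 bp. Of the 44 CpGs, 21 were at 0% in all 3 libraries, 13 were lower in both lines than in parental cells and 0 were higher in both. The 13 are not independent, since neighbouring CpGs can share molecules and both lines share the parental library. No share of all CpGs lower in both lines was computed to set beside them. The CpG nearest to the start, at -250 bp, had 0 of 24, 0 of 13 and 0 of 15 reads methylated. The CpG at -624 bp (position 65432811), base 58 of the JAK1 sequence above, was the exception in parental cells, with 17 of 48 reads methylated (35.4%, exact 95% interval 22.2% to 50.5%). Line 1 had 0 of 30 (0% to 11.6%) and line 2 had 7 of 43 (16.3%, 6.81% to 30.7%). The fall in line 1 passed the Fisher exact test (adjusted p = 0.00347) and the difference of line 2 did not (adjusted p = 0.693). The other CGs of that sequence, at bases 127 and 147, had levels between 0% and 4.82% in the 3 libraries.

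JAK3, the kinase that partners JAK1 on the receptor form with the common gamma chain, was partly methylated at its start, and neighbouring CpGs differed widely. Over the 14 CpGs from +16 to +237 bp the parental levels ran from 0% to 91.7%, with a mean of 37.2%. The mean was 22.4% in line 1 and 33.5% in line 2, so that the mean of the knockout lines, 27.9% ± 7.85 (SD, n = 2), lay 9.30 points under parental, less than the 11.1 points between the lines. At +82 bp, 11 of 12 parental reads were methylated, 12 of 18 in line 1 and 16 of 19 in line 2, while at +114 bp the counts were 0 of 15, 0 of 15 and 2 of 16. The nearest CpG to the start, at +16 bp, had 2 of 13 reads methylated in parental cells, 7 of 25 in line 1 and 7 of 20 in line 2, and the libraries did not differ by the Fisher exact test (adjusted p = 1 in both lines). Of the 10 CGs in the JAK3 sequence above, 4 passed the read minimum. The 6 that did not, at bases 80 to 149, were mostly methylated, with 27 of 33 parental reads, 49 of 54 reads in line 1 and 42 of 45 in line 2. Reads from neighbouring CpGs can come from the same molecule, so these pooled counts carry no interval.

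Both called CpGs of JAK3 lay far upstream. At -2602 bp (position 17961443), 43 of 66 parental reads were methylated (65.2%), 18 of 63 in line 1 (28.6%) and 33 of 71 in line 2 (46.5%). At -2528 bp (position 17961369) the counts were 27 of 39 (69.2%), 16 of 46 (34.8%) and 38 of 63 (60.3%). Both fell in line 1 by the Fisher exact test (adjusted p = 0.0016 and 0.0390), and neither difference passed in line 2 (adjusted p = 0.583 and 1). The CpG at -2530 bp, 2 bp from the second of them, had levels of 29.3%, 25.5% and 40.6% in parental cells, line 1 and line 2. Line 1 was again the lowest there, but line 2 lay above parental. On the other side of the first, the CpG at -2670 bp had levels of 70.2%, 51.8% and 67.7%, the order seen at the called CpGs. It was not called. Over the whole window of 34 CpGs the mean was 57.0%, 48.6% and 55.1%, and the mean of the knockout lines, 51.8% ± 4.55 (SD, n = 2), was 5.17 points under parental, less than the 6.44 points between the lines.

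TYK2, the kinase that partners JAK1 on the receptor form shared with interleukin-13, joined an unmethylated start to a methylated upstream edge, and the edge carried its 2 called CpGs. Within 500 bp of the start the mean over 66 CpGs was 0.795% in parental cells, 1.47% in line 1 and 1.06% in line 2, and the CpG at -7 bp had 0 of 55, 1 of 49 and 0 of 55 reads methylated. Over the 19 CGs of the TYK2 sequence above, all tested, 2 of 1190 parental reads were methylated, 5 of 951 in line 1 and 3 of 1233 in line 2. Upstream of it, 8 CpGs from -731 to -526 bp had a mean of 63.4% in parental cells, 39.5% in line 1 and 47.1% in line 2. The mean of the knockout lines, 43.3% ± 5.35 (SD, n = 2), was 20.1 points under parental, and the lines differed by 7.57 points. All 8 CpGs were lower in both lines than in parental cells, and unadjusted p-values of the Fisher exact test were under 0.05 at 6 of them in line 1 and at 5 in line 2. Of all CpGs, 10.6% in line 1 and 5.97% in line 2 were lower at this limit. Reads of neighbouring CpGs can come from the same molecule, so the 8 CpGs are not independent. These CpGs were grouped after their values were seen, and the parental library is shared by the comparisons of both lines.

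The called CpGs of TYK2 lay 7 bp apart within that edge. At -620 bp (position 10491868), 62 of 74 parental reads were methylated (83.8%, exact 95% interval 73.4% to 91.3%), against 34 of 82 in line 1 (41.5%, interval 30.7% to 52.9%). Line 2 had 74 of 116 (63.8%, interval 54.4% to 72.5%). At -613 bp (position 10491861) the counts were 70 of 76 (92.1%), 43 of 93 (46.2%) and 97 of 123 (78.9%). Line 2 lay between the other libraries at both. The falls in line 1 had adjusted p-values of 4.23e-06 and 2.11e-08 by the Fisher exact test, and those of line 2 were 0.143 and 0.378. At -613 bp line 1 was also lower than line 2 by the Fisher exact test (adjusted p = 0.000289). At -641 bp (position 10491889), named because another threshold calls it, 66 of 68 parental reads were methylated, 56 of 72 in line 1 and 79 of 102 in line 2. It was lower than parental by 19.3 points in line 1 and by 19.6 in line 2, with adjusted p-values of 0.0151 and 0.0308 by the Fisher exact test, differences under the size needed for a call. It was called in both lines when 10 points sufficed. With reads of the reverse strand alone, the CpG at -620 bp was called in both lines, at 59 of 66, 28 of 67 and 65 of 104 reads methylated. The share of a library's reads falling on the TYK2 window was 0.840 times the parental share in line 1 and 0.905 times in line 2, and the part of such dosage in the methylation values was not tested.

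**Figure D2:**
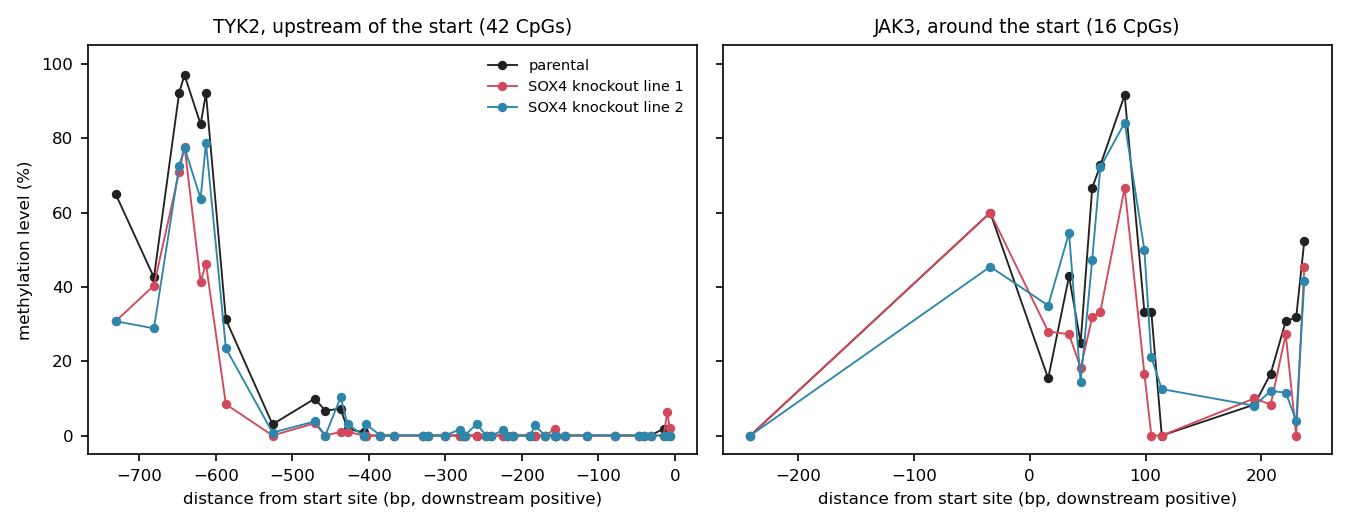
Methylation level (%) against distance in bp from the start site for the 42 upstream CpGs of TYK2 (left) and the 16 CpGs within 500 bp of the JAK3 start (right), with lines joining neighbouring CpGs of the parental library (black), SOX4 knockout line 1 (red) and line 2 (blue). At TYK2 both knockout lines lie under parental at the 8 CpGs from -731 to -526 bp and all 3 libraries are near 0% closer to the start, while at JAK3 the levels of single CpGs run from 0% to 91.7%.

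The TNFSF11 gene, which encodes RANKL, was methylated at its upstream start and low at the tested CpGs of its downstream start. At the upstream start, the CpGs at -68 and -47 bp, bases 183 and 204 of its sequence above, had 32 of 32 parental reads methylated at each, 23 of 23 and 21 of 21 in line 1, and 32 of 33 and 34 of 35 in line 2. The nearest CpG, at +20 bp, had 24 of 24, 17 of 18 and 26 of 26. At the downstream start, the nearest CpG with enough reads, at +187 bp, had 1 of 19, 0 of 12 and 0 of 24 reads methylated. The 25 CpGs from +187 to +480 bp had a mean of 5.51% in parental cells, 0.901% in line 1 and 3.31% in line 2. Of them, 18 were lower in both lines and 0 higher in both, and 0 of the 25 were called. Neighbouring CpGs can share molecules and both lines share the parental library, so the 18 are not independent. The share of all CpGs lower in both lines was not computed. The 6 CGs in the sequence before the downstream start were under the read minimum. Of the 5 that were in the files, 0 of 8 parental reads were methylated, 0 of 10 in line 1 and 2 of 14 in line 2, which is too few to compare the libraries. All 19 CpGs under the minimum in this window lay within 500 bp of the start, and they were higher than the tested CpGs there, with 29 of 103 parental reads methylated (28.2%), 8 of 67 in line 1 (11.9%) and 29 of 89 in line 2 (32.6%). The low level near the downstream start therefore holds for the tested CpGs and not for all CpGs read.

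Called CpGs of TNFSF11 were found only in the window of the downstream start, 1 higher and 2 lower in line 1. At -705 bp (position 43147584), 15 of 16 parental reads were methylated (93.8%), 3 of 11 in line 1 (27.3%) and 16 of 23 in line 2 (69.6%). At +1366 bp (position 43149655) the counts were 38 of 48 (79.2%), 7 of 32 (21.9%) and 44 of 72 (61.1%). Both fell in line 1 (adjusted p = 0.0133 and 4.34e-05 by the Fisher exact test), neither difference passed in line 2 (adjusted p = 0.924 and 0.631), and the CpG at +1366 bp was also lower in line 1 than in line 2 (adjusted p = 0.0220). The CpG at +772 bp (position 43149061) went the other way, with 4 of 97 parental reads methylated (4.12%, exact 95% interval 1.14% to 10.2%), against 25 of 54 in line 1 (46.3%, interval 32.6% to 60.4%). Line 2 had 22 of 90 (24.4%, interval 16.0% to 34.6%). By the Fisher exact test its adjusted p was 1.04e-07 in line 1 and 0.0129 in line 2, where the difference of 20.3 points was under the size needed for a call. The tested neighbours at +754 and +804 bp were at 6.78% or lower in every library, so among tested CpGs the rise covered 1 position.

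Over the windows, the mean at the downstream start (55 CpGs) was 15.6% in parental cells, 12.2% in line 1 and 14.0% in line 2, and the mean of the knockout lines, 13.1% ± 1.24 (SD, n = 2), was 2.52 points under parental against 1.76 points between the lines. At the upstream start (9 CpGs) the means were 60.1%, 62.8% and 67.2%, and the mean of the knockout lines, 65.0% ± 3.08 (SD, n = 2), was 4.88 points above parental against 4.36 points between the lines. That gap came from 6 CpGs between -1448 and -1281 bp, with means of 40.1%, 45.1% and 51.7%, and no CpG among them was called. The share of reads on the downstream window relative to parental was 0.668 in line 1 and 0.848 in line 2, and on the upstream window 0.752 and 1.27. For chromosome 13 as a whole the ratio of reads to parental was 0.851 and 0.932. That ratio was scaled to a median chromosome of 1, which is not the scale of the window shares. These differences in dosage moved with the libraries, and their part in the methylation values was not tested.

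TNFRSF11A, the gene of the RANKL receptor RANK, was mostly unmethylated around its start and had 1 called CpG, upstream of it. The CpG nearest to the start, at -202 bp, had 0 of 27, 0 of 11 and 2 of 39 reads methylated, and the 8 CpGs from +464 to +498 bp were at 0% in all 3 libraries. Parental levels were higher at -450 and -447 bp, at 52.9% and 83.3%. At -407 bp, named after its values were seen, 9 of 31 parental reads were methylated, 0 of 24 in line 1 and 2 of 54 in line 2. It was not called (adjusted p = 0.0539 in line 1 and 0.0921 in line 2 by the Fisher exact test). At -884 bp (position 59991636), 3 of 49 parental reads were methylated (6.12%), 14 of 44 in line 1 (31.8%) and 15 of 65 in line 2 (23.1%). The rise in line 1, of 25.7 points, passed the Fisher exact test close to both limits of a call (adjusted p = 0.0407), and the difference of line 2 did not pass (adjusted p = 0.402). The next tested CpGs, at -934 and -794 bp, differed by less, with levels of 47.5%, 41.8% and 41.3% and of 94.7%, 94.7% and 90.6% in parental cells, line 1 and line 2. Over 33 CpGs the window means were 14.4%, 11.7% and 13.0%, and the mean of the knockout lines, 12.4% ± 0.920 (SD, n = 2), was 2.01 points under parental against 1.30 points between the lines. The 49 CpGs of the window under the read minimum pooled to 4.55%, 0.823% and 6.33%.

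TNFRSF11B, the gene of the decoy receptor osteoprotegerin, changed from methylated to mostly unmethylated across its start site in every library, and none of its 45 CpGs was called. The 13 CpGs from -424 to -7 bp had means of 53.8% in parental cells, 52.2% in line 1 and 63.4% in line 2, while the 27 CpGs from +37 to +499 bp had means of 7.42%, 7.46% and 4.43%. Levels came down toward the start: at -424 bp the counts were 44 of 46, 24 of 26 and 35 of 37 reads methylated, at -68 bp 12 of 22, 7 of 13 and 14 of 25, and at -7 bp, the nearest CpG, 3 of 24, 0 of 10 and 3 of 21. The CpG at -337 bp came nearest to a call in this window, with 31 of 42 parental reads methylated, 24 of 24 in line 1 and 32 of 33 in line 2 (adjusted p = 0.0744 and 0.276 by the Fisher exact test). The window means were 26.3%, 26.1% and 27.7%, and the mean of the knockout lines, 26.9% ± 1.14 (SD, n = 2), was 0.589 points above parental, less than the 1.61 points between the lines.

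**Figure D3:**
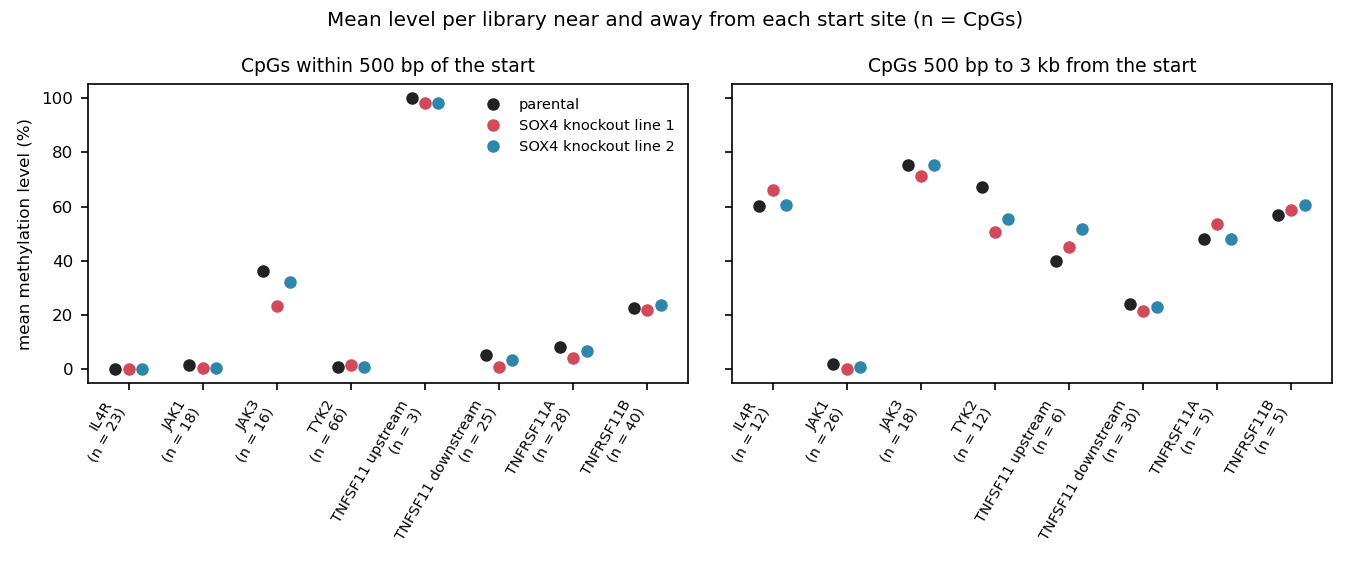
Mean methylation level (%) per library over the CpGs within 500 bp of each start site (left) and over those from 500 bp to 3 kb (right), with the number of CpGs under each start site; black, red and blue points stand for the parental library, SOX4 knockout line 1 and line 2, and there are no error bars since each point is 1 library. Near the start, IL4R is at 0% and the upstream start of TNFSF11 at 98.0% to 100% in all libraries, and the libraries stand furthest apart at JAK3 on the left and TYK2 on the right.

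The 9 called CpGs lay at 5 of the 8 start sites. Line 2 was intermediate in all 9, a count that has little weight because these CpGs were picked by a large difference between line 1 and parental cells. All were more than 500 bp from their start site, and all were called in line 1. Window means were given no test: a permutation of 1 against 2 libraries cannot give a p under 0.333, and a model fit, which would rest on the spread of 2 libraries alone, was not run. In 5 of the 8 windows (JAK1, TYK2, both starts of TNFSF11 and TNFRSF11A) the knockout mean differed from parental by more than the lines differed from each other. The means over all CpGs, 42.75% in parental cells, 38.68% in line 1 and 40.62% in line 2, met the same condition. The share of other windows that meet it was not computed, so the count is not particular to these genes. With each CpG weighted by its reads the sign of the window difference turned at TYK2, the downstream start of TNFSF11 and TNFRSF11A, to 0.193, 0.234 and 0.0381 points above parental. With CpGs within 1 kb alone it turned at the upstream start of TNFSF11, to -1.91 points over 3 CpGs.

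**Figure D4:**
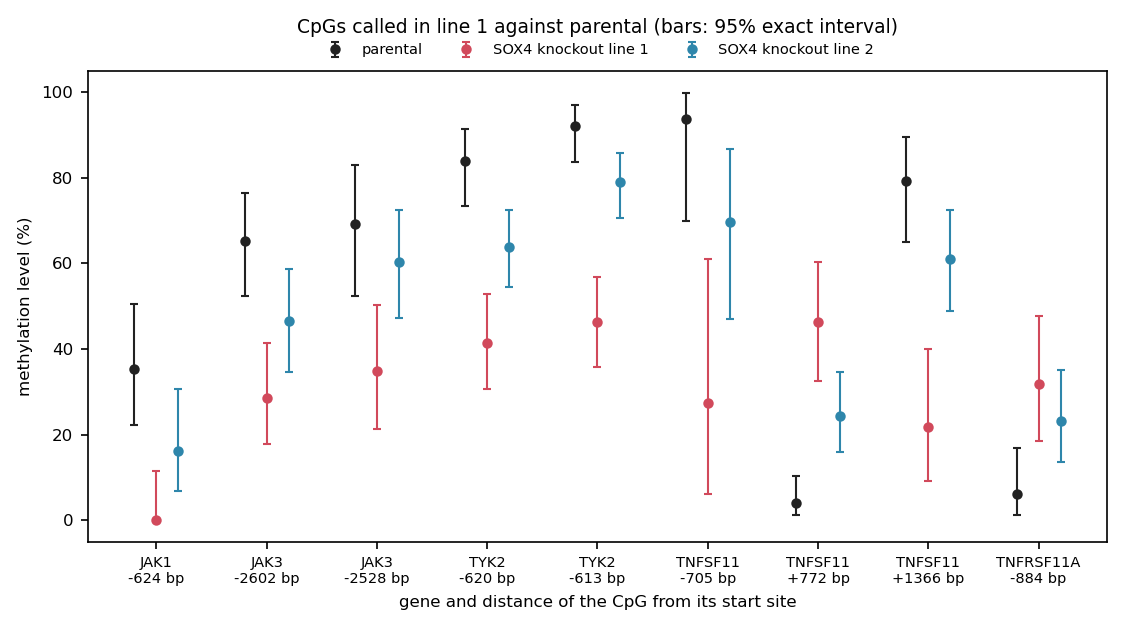
Methylation level (%) of the 9 CpGs called in line 1 against parental, labelled by gene and distance from the start site (the downstream start for TNFSF11), for the parental library (black), SOX4 knockout line 1 (red) and line 2 (blue); bars are exact 95% intervals and cover counting error only. Line 1 is lower than parental at 7 of the 9 CpGs and higher at 2; the CpGs were picked by this difference, which favours a place for line 2 between the other libraries.

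Other genes of the same pathways were placed by their RefSeq promoters, which matched the CpGs of the files for 14 of 18 genes of a list of receptor chains, kinases, transducers and inhibitors. Of 990 CpGs within 3 kb of their starts, 16 (1.62%) rose and 11 (1.11%) fell in line 1, where 0.599% and 4.46% of all CpGs did. In line 2, 6 (0.606%) rose and 0 fell, where all CpGs gave 0.0831% and 0.713%. The same counts, 6 and 0, were called in both lines, where all CpGs gave 0.0581% and 0.6%. STAT6, the transcription factor that the receptor kinases phosphorylate, was the single gene of the list with CpGs called in both lines. Its 19 CpGs averaged 19.8% in parental cells, 74.2% in line 1 and 58.5% in line 2, with 15 CpGs called higher in line 1 and 6 in line 2. STAT6 is the gene on which the study centred, so it is no independent evidence for the list. Without it, 1 of 971 CpGs (0.103%) rose and 11 (1.13%) fell in line 1, both under the shares of all CpGs given above, and 0 were called in line 2. Starting levels of the list were not matched to those of all CpGs.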

How the data were processed

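DNA methylation was measured in 3 libraries, parental Hep3B cells and 2 SOX4 knockout lines. The deposited files give, for each cytosine of a CpG, counts of total, context and methylated reads with no normalization, and the methylation level as a fraction, which equalled methylated over context reads within rounding. The submitters' processing notes name GRCh37 and hg19. The aligner, the caller, the read filters and the treatment of PCR duplicates are not given in the sources used here; duplicates, if kept, would make intervals too narrow.

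Reads of both strands were summed per CpG, and CpGs with at least 10 context reads in all 3 libraries were kept. Genome-wide, pairs of libraries were compared per CpG by the 2-sided Fisher exact test with Benjamini-Hochberg adjustment. Intervals are exact Clopper-Pearson 95% intervals. PCR reads are not independent molecules, so intervals cover counting error only. Means weight CpGs equally. The test was checked on simulated reads, drawn independently per CpG with added rises. Shared molecules, duplicates and falls were not part of that check. Named CpGs are the called ones (at most 4 a window) and the one nearest to each start; others are marked as chosen after their values were seen or illustrate a profile.

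RefSeq promoters (GRCh38.p14) were placed among the files' CpGs by the spacing of their CGs, with at least 9 matches and a lead of 5 over the next placement; 6 of the 7 genes were in the table, and 7 of 9 promoters were placed, each of these 6 genes with a start within 50 bp of a given one. The upstream start of TNFSF11, with 3 CGs, was matched at the given start. The design had foreseen a GRCh37 table for the pathway list; this placement replaced it and was chosen after the data were seen. Members, lists and tests were chosen with earlier results of these data known. Tests used scipy 1.17.1 and numba 0.67.0, tables pandas 2.3.3 and numpy 2.4.6 and figures matplotlib 3.10.9, under Python 3.11.15.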

Additional observations from a re-analysis of the deposited data

How the results depend on the processing

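For 17 results, 130 alternative values were computed: 103 moved by less than 1 SD of the lines or kept a count within 1.5 times, and 27 moved further. The 103 include the knockout means with a line left out. Leaving out 1 of 2 lines always moves their mean by less than 1 SD, so those values do not measure stability. Of 62 values of the knockout mean minus parental, 8 changed sign. The cause was not tested. At 10 points, line 2 and both lines gave 1 CpG higher and 1 lower each; at 50 points, line 1 gave 0 higher and 2 lower than parental, and 0 lower than line 2. At an adjusted p under 0.01, line 1 gave 1 higher CpG, and 1 lower than line 2, as it did with reads thinned to the smallest depth. Within 1 kb, line 1 gave 4 lower than parental and 1 lower than line 2. Reads of the reverse strand gave 1 lower CpG in line 2 and in both lines. Leaving out a knockout line, the counts for both lines ran from 0 to 2 higher and from 0 to 7 lower, the upper values without line 2. The JAK1 difference was -1.11 points with a minimum of 5 reads, -1.64 with 20 and -1.58 weighted by reads. That of TNFRSF11B was 2.30 with a minimum of 5 reads, -3.20 weighted and -1.06 on the reverse strand. Weighted by reads, IL4R gave -0.606, TYK2 0.193, the downstream start of TNFSF11 0.234 and TNFRSF11A 0.0381, and the upstream start gave -1.91 within 1 kb. No paired analysis was possible because only 1 library is parental. The lower TYK2 levels from -731 to -526 bp, grouped after the values were seen, kept their sign in each alternative run. Minimums of 5 and 20 reads kept the same 8 CpGs. All 8 were lower in both lines, so leaving out a line could not turn the sign. These runs therefore do not measure stability. The difference was -17.3 points weighted by reads and -19.8 on the reverse strand. Depth limits single CpGs, and 174 of the 507 CpGs were under the read minimum.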
